A study of Mus musculus with 30 samples.

Results

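The comparison described here is between retinal pigment epithelium (RPE) collected at zeitgeber time (ZT) 9 and at ZT4, 2 points of the light phase that lie 5 h apart. ZT counts hours from lights-on by convention, and the labels give the clock times as 11 h for ZT4 and 16 h for ZT9. The groups hold 5 samples each, 10 of the 30 samples of the study, which covers 6 time points. Every animal was a male wild-type C57BL/6 mouse aged 10 to 13 weeks with no treatment named in the labels, and each gave 1 eye. The eyecup was freed of cornea, iris, lens and retina, and RPE clumps were then lifted from the choroid with forceps, so each sample is a hand dissection that can carry neighbouring tissue. The quantity is FPKM, the number of fragments assigned to a gene scaled by its length and by the reads mapped in the sample. Of the 51904 genes listed, 16741 reached 1 FPKM in 5 or more of the 30 samples and were tested.

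The RPE is the pigmented layer behind the photoreceptors. It recycles the visual chromophore, engulfs the shed tips of photoreceptor outer segments each day and carries its own circadian clock. In that clock BMAL1 (encoded by Arntl) and CLOCK switch on the Per and Cry genes, whose proteins then shut BMAL1 and CLOCK down. A second loop runs through the REV-ERB repressors and the ROR activators, which act in opposite directions on Arntl. The PAR bZIP factors DBP, TEF and HLF and their competitor NFIL3 pass the rhythm on to further genes. The core clock is described first, by these roles, and then the genes outside it.

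BMAL1 and CLOCK bind the E-box CACGTG, and DBP, TEF and HLF bind D-boxes such as TTATGTAA. The 250 bases before the RefSeq start of 3 clock genes are shown because they hold these motifs, which are written in capitals. The mean FPKM of each of the 3 was higher at ZT9, but none passed the test, and the samples of Ciart overlapped. Coordinates are those of GRCm38.p6, and each sequence is given 5′ to 3′ on the strand of its gene. Per1 lies on the plus strand of chromosome 11 (chr11:69098699-69098948), Per3 on the minus strand of chromosome 4 (chr4:151044666-151044915) and Ciart on the minus strand of chromosome 3 (chr3:95882229-95882478).
Per1: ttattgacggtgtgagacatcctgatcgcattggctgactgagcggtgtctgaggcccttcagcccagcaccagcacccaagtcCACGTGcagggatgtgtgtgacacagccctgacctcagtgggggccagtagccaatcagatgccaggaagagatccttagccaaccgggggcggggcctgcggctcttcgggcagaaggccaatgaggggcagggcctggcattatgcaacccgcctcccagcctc
Per3: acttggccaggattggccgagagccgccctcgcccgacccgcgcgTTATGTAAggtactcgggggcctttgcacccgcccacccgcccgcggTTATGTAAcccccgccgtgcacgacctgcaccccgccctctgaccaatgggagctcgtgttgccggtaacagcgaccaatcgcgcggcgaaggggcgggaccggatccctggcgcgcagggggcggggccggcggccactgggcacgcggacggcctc
Ciart: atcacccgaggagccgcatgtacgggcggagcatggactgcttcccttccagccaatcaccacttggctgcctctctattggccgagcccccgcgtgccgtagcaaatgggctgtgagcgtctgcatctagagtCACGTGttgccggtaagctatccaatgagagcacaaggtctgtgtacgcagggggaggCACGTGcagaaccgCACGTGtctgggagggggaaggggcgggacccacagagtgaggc
The table holds 2 windows for Per1. The one shown had 1 E-box, whose first base lay 166 bases upstream of that start, and the other (chr11:69099902-69100151) had none. Ciart had 3 E-boxes, at 116, 58 and 44 bases upstream, and Per3 had 2 D-boxes, at 205 and 158 bases upstream. Promoter windows were found for 22 of the 27 genes looked up, which were the 24 clock genes and 3 further genes of the comparison with the night. Counting a gene when any of its windows held the motif, the E-box was present in 5 of the 22, namely Per1, Bhlhe41, Ciart, Tef and Cry1, against 6.86% of all 27025 genes with a window. The D-box was present in Per3 alone among the 22, against 0.977% of all genes. The related sequence CACGTT was present in 4 of the 22 (Cry2, Nr1d1, Cry1 and Rorb), against 4.5% of all genes. Both forms searched of the ROR and REV-ERB response element, which is 10 bases long, were in none of the 22, against 0.211% and 0.207% of all genes. Both strands were searched and the motifs do not overlap one another in the windows printed. A match of letters is a description of the window only.

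The samples were read at an estimated 16.3 to 23.0 M reads at ZT4 and 15.8 to 23.0 M reads at ZT9 (M: mega), so depth was alike in both groups. RPE transcripts were abundant in all 10 samples: the 10 RPE markers summed to 4985 to 17498 FPKM at ZT4 and 8444 to 15119 FPKM at ZT9. Rpe65, the isomerase of the visual cycle, averaged 1014 ± 537 FPKM at ZT4 and 979 ± 238 FPKM at ZT9 (mean ± SD, n = 5 in this and all later values of this form). Best1, which encodes the bestrophin channel and is also an RPE marker, was at most 3.93 FPKM and listed at 0 in ZT4 replicate 2 and in ZT9 replicates 2 and 4. Other tissues contributed in both groups: the 17 surface epithelium markers, keratins among them, summed to 2914 to 24055 FPKM at ZT4 and 3332 to 23032 FPKM at ZT9. The 13 skeletal muscle markers summed to 4053 to 13373 FPKM at ZT4 and 4023 to 10295 FPKM at ZT9. In ZT4 replicates 1 and 5 and ZT9 replicates 2, 3 and 4 the surface epithelium sum was above the RPE marker sum. In the other samples it was below. In ZT4 replicate 1 the sums were 24055 FPKM for surface epithelium, 13373 FPKM for skeletal muscle and 4985 FPKM for RPE. The 13 rod markers ran from 280 to 4456 FPKM at ZT4 and from 78.7 to 6979 FPKM at ZT9, with Pde6g, Pde6b, Gngt1, Rcvrn, Nr2e3 and Cnga1 at 0 in at least 1 sample. All 5 ZT4 samples are left eyes, whereas ZT9 has 2 left and 3 right eyes. A fit with eye as a term and a comparison of left eyes only are therefore given after the clock results, and beside other genes where they move the change by over 1.5 times. At ZT14 replicate 3 stands apart, with 557 abundant genes listed at 0 against 1 to 23 in the other samples. It enters the 30-sample spread and the comparison with the night.

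**Figure D1:**
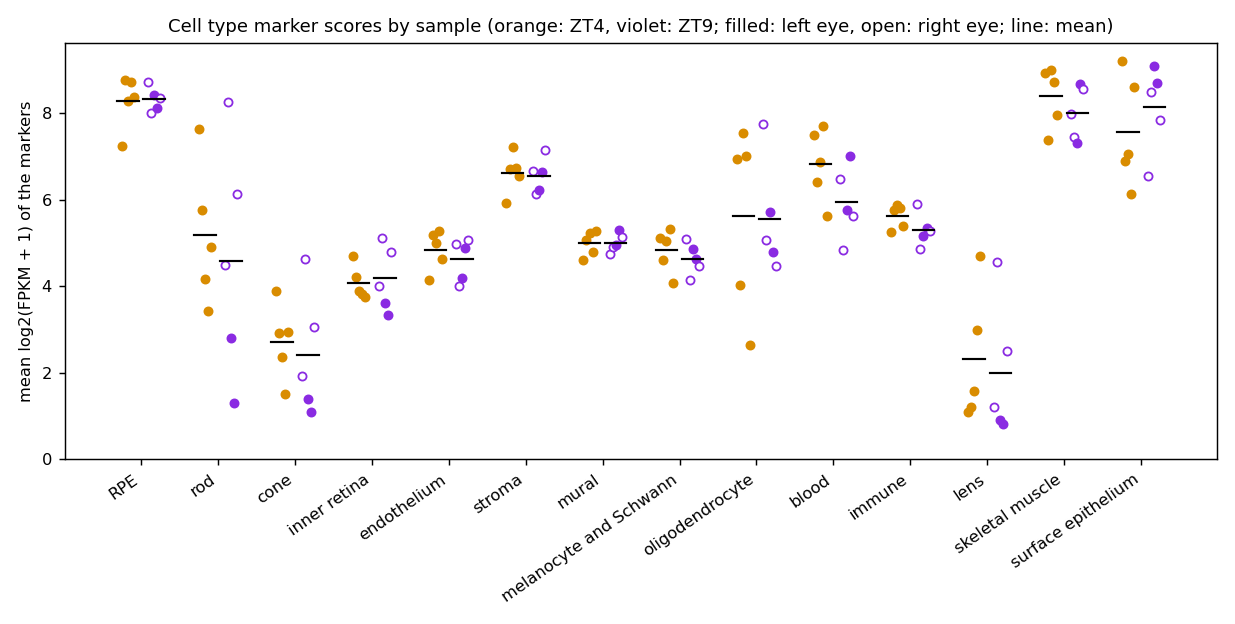
Mean log2(FPKM + 1) of each cell type marker list (vertical axis) in the 5 ZT4 samples (orange) and the 5 ZT9 samples (violet), with left eyes filled, right eyes open and a line at each mean. The ranges of ZT4 and ZT9 overlap in all 14 lists, and the rod, oligodendrocyte and lens scores are spread widely among samples of 1 time point.

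No gene passed the test between ZT4 and ZT9. With limma on log2(FPKM + 1) over all 30 samples, 0 of 16741 genes (0.0%) reached an adjusted p below 0.05. The smallest adjusted p was 0.435, shared by Arntl and Ihh. At an unadjusted p below 0.05 there were 582 genes, 281 higher and 301 lower at ZT9, which is 3.48% of those tested. In 105 genes (0.627%) the 5 and 5 samples did not overlap, with 58 higher and 47 lower at ZT9. The median change over all genes was 0.01 on the log2 scale and the median standard error of a change was 0.39. All differences between ZT4 and ZT9 below are therefore given as values, and unadjusted p-values are printed beside these shares of all genes.

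The clock genes nevertheless held many of the smallest p-values. All 24 clock genes of the 6 clock lists were measured, and 10 of them (41.7%) were at an unadjusted p below 0.05, beside 3.48% of all genes, 9 of them higher and 1 lower at ZT9. Samples did not overlap in 6 of the 24, namely Per1, Per2, Per3, Nr1d2 and Dbp, all higher at ZT9, and Arntl, lower at ZT9, beside 0.627% of all genes. The median change of the 24 was 0.36 on the log2 scale, beside 0.01 for all genes. These lists were drawn up with a daily rhythm of clock genes in these data already known. With eye as a term the numbers at an unadjusted p below 0.05 were again 9 and 1. In left eyes only the numbers were 6 and 1, with a median change of 0.61. Over all genes, 873 were at that level with eye as a term and 895 in left eyes only, against 582 in the main fit. The 3.48% of the main fit is therefore not the share to set beside the clock counts of these other fits.

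**Figure D2:**
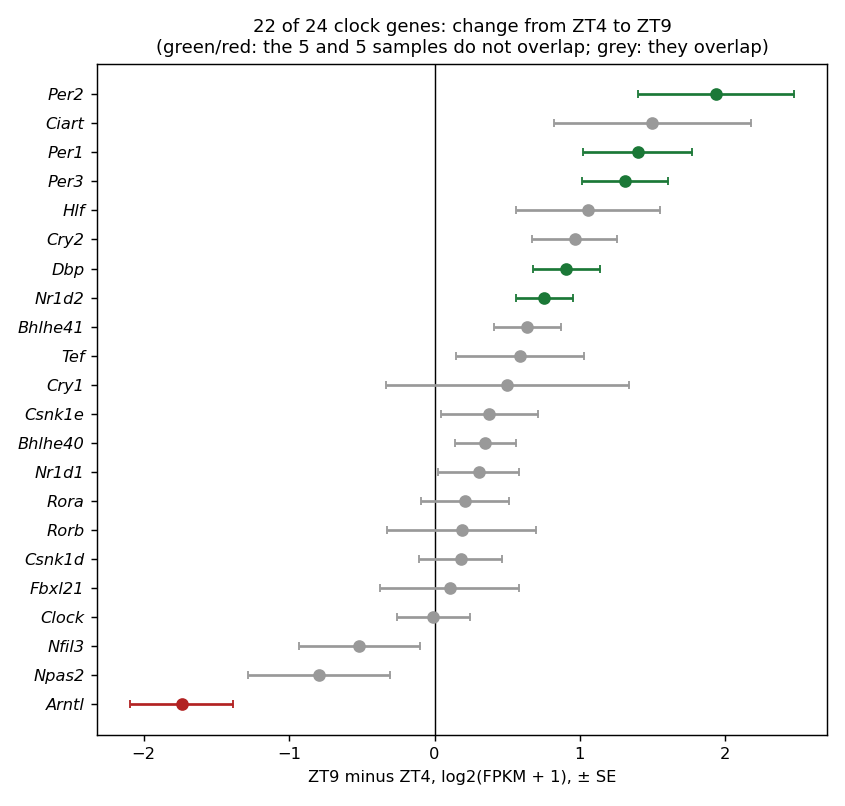
Change from ZT4 to ZT9 in log2(FPKM + 1), with its standard error from limma (horizontal axis), for 22 of the 24 clock genes in order of change. Per2 (1.94), Per1 (1.40), Per3 (1.31), Dbp (0.91) and Nr1d2 (0.75) in green and Arntl (−1.74) in red are the genes whose samples do not overlap.

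Of the activators, Arntl (ENSMUSG00000055116, chromosome 7, 113207465 to 113314126 in GRCm38) was the gene with the smallest p in the whole comparison. It stood at 11.4, 12.9, 11.7, 7.83 and 11.3 FPKM in ZT4 replicates 1 to 5 and at 1.47, 4.05, 3.57, 1.37 and 3.28 FPKM in ZT9 replicates 1 to 5. Every ZT9 sample lay below every ZT4 sample, and the mean was 4.02-fold lower at ZT9. The change was −1.74 ± 0.35 (log2, SE; limma, unadjusted p = 3.39e-05, adjusted p = 0.435). It was −1.73 with eye as a term and −1.86 in left eyes only. The adjusted p was 0.0474 without ZT14 replicate 3 and 0.0454 with array weights, so Arntl passed the threshold under these settings. The samples of its partner Clock overlapped, at 15.7 ± 5.38 FPKM in ZT4 and 15.4 ± 3.88 FPKM in ZT9, a change of −0.01 ± 0.25. Npas2, which encodes a relative of CLOCK that also pairs with BMAL1, was 3.69 ± 1.69 FPKM at ZT4 and 2.06 ± 2.37 FPKM at ZT9, with overlapping samples and an unadjusted limma p of 0.116.

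In the negative arm all 5 genes had a positive change, and Per1, Per2 and Per3 did so without overlap. Per3 (ENSMUSG00000028957, chromosome 4, 151003652 to 151044665) was 5.24, 9.80, 3.94, 7.11 and 11.6 FPKM in the ZT4 replicates and 15.5, 17.2, 23.5, 20.5 and 19.1 FPKM in the ZT9 replicates. The lowest ZT9 value lay above the highest ZT4 value, and the change was 1.31 ± 0.30 (limma, unadjusted p = 0.00013, adjusted p = 0.616). Per1 (ENSMUSG00000020893, chromosome 11, 69095217 to 69109960), a period gene known to answer also to glucocorticoids, was 6.27, 11.0, 8.18, 5.13 and 5.38 FPKM at ZT4 and 14.4, 14.2, 13.0, 26.9 and 42.4 FPKM at ZT9. The ZT9 samples were all higher, 3 of them close together and 2 well above, and the change was 1.40 ± 0.38 (limma, unadjusted p = 0.00091). Per2 (ENSMUSG00000055866, chromosome 1, 91415982 to 91459324) was 1.91, 3.28, 1.18, 4.18 and 4.08 FPKM at ZT4 and 52.6, 8.89, 11.6, 7.31 and 9.55 FPKM at ZT9. Its mean was 6.15-fold higher at ZT9, a ratio that rests largely on ZT9 replicate 1, while the other ZT9 samples were also above all ZT4 samples. The change was 1.94 ± 0.54 (limma, unadjusted p = 0.00122), and with any 1 ZT4 or ZT9 sample left out it lay between 1.46 and 2.13.

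The cryptochrome genes were less clear-cut. Cry2 was 8.86, 14.9, 9.42, 9.51 and 10.2 FPKM at ZT4 and 11.6, 20.3, 19.7, 19.4 and 47.3 FPKM at ZT9. Its groups overlapped through ZT4 replicate 2 and ZT9 replicate 1, with a change of 0.96 ± 0.29 (limma, unadjusted p = 0.00268). Cry1 was 6.73, 135, 8.52, 7.52 and 13.5 FPKM at ZT4 and 21.3, 80.3, 21.8, 23.7 and 5.86 FPKM at ZT9. One sample in each group was several times the rest, and the change was 0.50 ± 0.84 (limma, unadjusted p = 0.555), so a shift of Cry1 in either direction was not detectable at this spread.

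**Figure D3:**
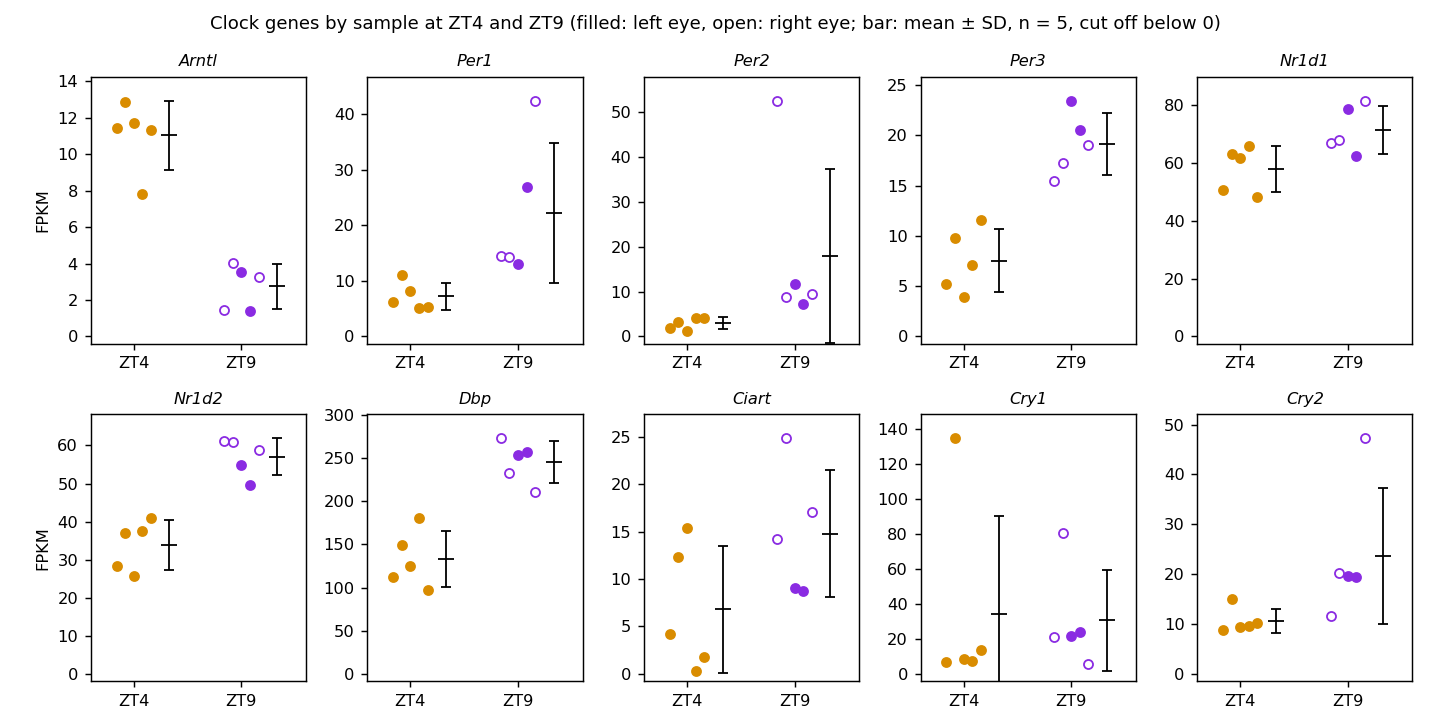
FPKM of 10 clock genes (vertical axes, linear) in each ZT4 and ZT9 sample, with left eyes filled, right eyes open and bars for the mean ± SD of 5 samples, cut off below 0. Arntl is lower in all ZT9 samples, Per1, Per2, Per3, Nr1d2 and Dbp are higher in all of them, and Cry1 has 1 sample far above the others at each time.

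Among the nuclear receptors, Nr1d2 (ENSMUSG00000021775, chromosome 14, 18204054 to 18239127), which encodes REV-ERB beta, was 28.2, 36.9, 25.8, 37.5 and 40.8 FPKM at ZT4 and 61.3, 60.9, 54.8, 49.7 and 58.7 FPKM at ZT9. The groups were well apart, with a change of 0.75 ± 0.20 (limma, unadjusted p = 0.000615). Nr1d1, which encodes REV-ERB alpha, was already at 57.9 ± 7.90 FPKM at ZT4 and at 71.4 ± 8.23 FPKM at ZT9, with overlapping samples (change 0.30 ± 0.28). Rora and Rorb, which encode activators of the same elements, had changes of 0.21 ± 0.30 and 0.19 ± 0.51 in log2 units, with overlapping samples in each.

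Of the output factors, Dbp (ENSMUSG00000059824, chromosome 7, 45705088 to 45710203) was the most abundant and was 113, 149, 125, 181 and 97.5 FPKM at ZT4 and 273, 233, 253, 257 and 210 FPKM at ZT9. All ZT9 samples were higher, the mean by 1.85-fold, and the change was 0.91 ± 0.23 (limma, unadjusted p = 0.000453). Hlf, which encodes a factor of the same family, was 37.8 ± 23.6 FPKM at ZT4 and 74.4 ± 31.2 FPKM at ZT9 with overlap (limma, unadjusted p = 0.0427). Tef, the third of them, ranged from 44.5 to 169 FPKM at ZT4 and from 124 to 243 FPKM at ZT9 (limma, unadjusted p = 0.194). Nfil3, which encodes the repressor that competes for the same D-boxes, was 5.43 ± 1.83 FPKM at ZT4 and 3.75 ± 1.85 FPKM at ZT9, a change of −0.52 ± 0.42.

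The E-box repressors Bhlhe40 and Bhlhe41 (DEC1 and DEC2) and Ciart (CHRONO) all had positive changes. Bhlhe41 was 30.7 ± 11.1 FPKM at ZT4 and 46.6 ± 8.86 FPKM at ZT9 (limma, unadjusted p = 0.0106). Bhlhe40 was 55.1 ± 11.2 FPKM at ZT4 and 70.4 ± 14.3 FPKM at ZT9 (limma, unadjusted p = 0.106). Ciart was 4.19, 12.4, 15.4, 0.249 and 1.76 FPKM at ZT4 and 14.2, 24.9, 9.03, 8.77 and 17.1 FPKM at ZT9, a change of 1.5 ± 0.68 (limma, unadjusted p = 0.0356). The ZT4 samples of Ciart were spread over most of the range, and 2 of them lay among the ZT9 values. The genes for clock protein turnover, the casein kinases Csnk1d and Csnk1e and the F-box gene Fbxl21, had changes of 0.10 to 0.38, and none of these 3 was at an unadjusted p below 0.05.

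The clock changes depended on the eye to different degrees. With eye as a term the change was 1.46 for Per3, 1.57 for Per1, 1.83 for Per2, 0.68 for Nr1d2, 0.89 for Dbp and 0.82 for Cry2. In left eyes only, with 2 samples at ZT9, it was 1.51 for Per3, 1.32 for Per1, 1.46 for Per2, 0.63 for Nr1d2, 0.97 for Dbp and 0.85 for Cry2, where Per2 (limma, unadjusted p = 0.0686) and Nr1d2 (0.0672) were no longer below 0.05. These 6 and Arntl moved by less than 1.5 times. Tef was far more dependent, with a change of 0.59 ± 0.44 that became 0.13 with eye as a term and 0.70 in left eyes only. For Npas2 the change of −0.79 became −0.48 and −0.17, and for Cry1 0.50 became 0.23 and 0.52. Ciart was at 1.39 (limma, unadjusted p = 0.0753) and 0.92 (0.301), Nr1d1 at 0.17 and 0.28 and Nfil3 at −0.37 and −0.89. Hlf was at 1.21 and 1.54, Bhlhe41 at 0.64 and 0.61 (limma, unadjusted p = 0.102 in left eyes only) and Bhlhe40 at 0.49 and 0.52. Of the 22 named clock genes, 10 moved by over 1.5 times or changed sign with eye as a term and 8 in left eyes only. The others among them were Clock, Rora, Rorb, Csnk1d, Csnk1e and Fbxl21, none of which was at an unadjusted p below 0.05 in any of the 3 comparisons. With 5 marker scores as terms the change was 0.22 for Bhlhe40, −1.29 for Npas2 and 0.92 for Cry1.

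Whether the step within the day differs from a step of the same length within the night was tested directly as the change from ZT4 to ZT9 minus the change from ZT14 to ZT19, which also spans 5 h and shares no sample with it. In this limma test 8 of 16741 genes (0.0478%) passed at an adjusted p below 0.05, and 1374 (8.21%) were at an unadjusted p below 0.05. Of the 8, Arntl, Per2, Nr1d2, Per3 and Dbp belong to the clock lists. Usp2, a clock-controlled ubiquitin protease, stands on the list of clock outputs. Ihh, the hedgehog ligand Indian hedgehog, which in the mouse eye is known from endothelium of the choroid, and the long non-coding RNA E130114P18Rik are on no list. In each of the 8 the estimated day and night changes had opposite signs. The clock genes were known to cycle in these samples, so their presence here is no independent support.

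For Arntl the difference of the steps was −4.05 ± 0.50 (log2, SE; adjusted p = 0.000125). Its ZT14 samples were 5.22, 0.905, 0, 1.74 and 3.23 FPKM and its ZT19 samples 16.2, 11.6, 12.2, 12.7 and 9.79 FPKM. It rose in the night step by 2.32 ± 0.35 (limma, adjusted p = 0.00673), and ZT9 and ZT14 samples lay in the same low range. For Per2 the difference was 5.08 ± 0.76 (limma, adjusted p = 0.00248), with 77.9, 117, 14.7, 32.8 and 9.11 FPKM at ZT14 and 1.03, 2.09, 4.42, 5.59 and 3.10 FPKM at ZT19. It fell by 3.15 ± 0.54 in the night step (limma, adjusted p = 0.0228). These were the only 2 of 16741 genes (0.0119%) past the threshold between ZT14 and ZT19.

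The differences of the other clock genes among the 8 were 1.65 ± 0.28 for Nr1d2 (limma, adjusted p = 0.0102), 2.30 ± 0.42 for Per3 (0.0196) and 1.74 ± 0.32 for Dbp (0.0235). Nr1d2 was 51.2 ± 12.3 FPKM at ZT14 and 26.5 ± 1.41 FPKM at ZT19, and Per3 was 17.4 ± 1.16 and 8.53 ± 2.61 FPKM. Dbp was 124 ± 37.9 FPKM at ZT14, close to its ZT4 level of 133 ± 32.7 FPKM, and 68.9 ± 17.1 FPKM at ZT19.

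Ihh was low throughout, at 2.77, 6.39, 4.36, 5.90 and 1.70 FPKM at ZT4 and 0.808, 0.724, 0, 0 and 0.560 FPKM at ZT9. At ZT14 it was 0, 1.26, 0, 0.803 and 0.913 FPKM and at ZT19 1.81, 6.86, 1.18, 2.35 and 4.56 FPKM. All ZT9 samples lay below all ZT4 samples, and the difference of the steps was −3.20 ± 0.54 (limma, adjusted p = 0.0102). The 10 endothelium markers summed to 240 to 463 FPKM at ZT4 and 174 to 402 FPKM at ZT9 with none at 0, and their part in the Ihh values was not tested. E130114P18Rik was 2.78, 15.8, 3.56, 6.06 and 6.31 FPKM at ZT4 and 4.90, 0, 1.24, 0.637 and 0.902 FPKM at ZT9. It was listed at 0 in 4 of the 5 ZT14 samples and was 7.52, 10.3, 2.19, 4.67 and 10.5 FPKM at ZT19, with a difference of −4.33 ± 0.76 (limma, adjusted p = 0.0136). Usp2 was 27.2, 16.6, 17.4, 7.30 and 8.35 FPKM at ZT4, 27.8, 42.7, 16.4, 47.9 and 72.3 FPKM at ZT9, 62.9 ± 26.2 FPKM at ZT14 and 17.5 ± 2.51 FPKM at ZT19. Its difference of 3.03 ± 0.59 (limma, adjusted p = 0.0415) had the largest adjusted p of the 8 and passed in 7 of 30 alternatives, against 19 for Dbp, 23 for Per3 and 27 to 29 for the other 5. Without ZT14 replicate 3 the adjusted p-values were 5.39e-05 for Arntl, 0.00113 for Per2, 0.0094 for Nr1d2 and Dbp, 0.021 for Ihh, 0.0246 for E130114P18Rik, 0.0262 for Per3 and 0.053 for Usp2. The right eyes numbered 0 and 3 at ZT4 and ZT9 and 1 and 4 at ZT14 and ZT19, so the fit with eye as a term gave the same differences, and all 8 passed. In left eyes only, which leaves 1 ZT19 sample, none of the 8 passed and the 10 genes that did were others, while the differences were −3.74 for Arntl, 5.23 for Per2, 1.69 for Nr1d2, −4.52 for Ihh, −5.04 for E130114P18Rik, 1.98 for Per3, 1.76 for Dbp and 2.38 for Usp2. With the rod, stroma, surface epithelium, skeletal muscle and oligodendrocyte marker scores as terms, Arntl (−4.54) and Nr1d2 (2.05) passed. The other 6 did not, with differences of 4.79 for Per2 (limma, adjusted p = 0.106), −3.19 for Ihh (0.111), −3.81 for E130114P18Rik (0.142), 2.62 for Per3 (0.0839), 1.47 for Dbp (0.166) and 3.69 for Usp2 (0.0605).

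**Figure D4:**
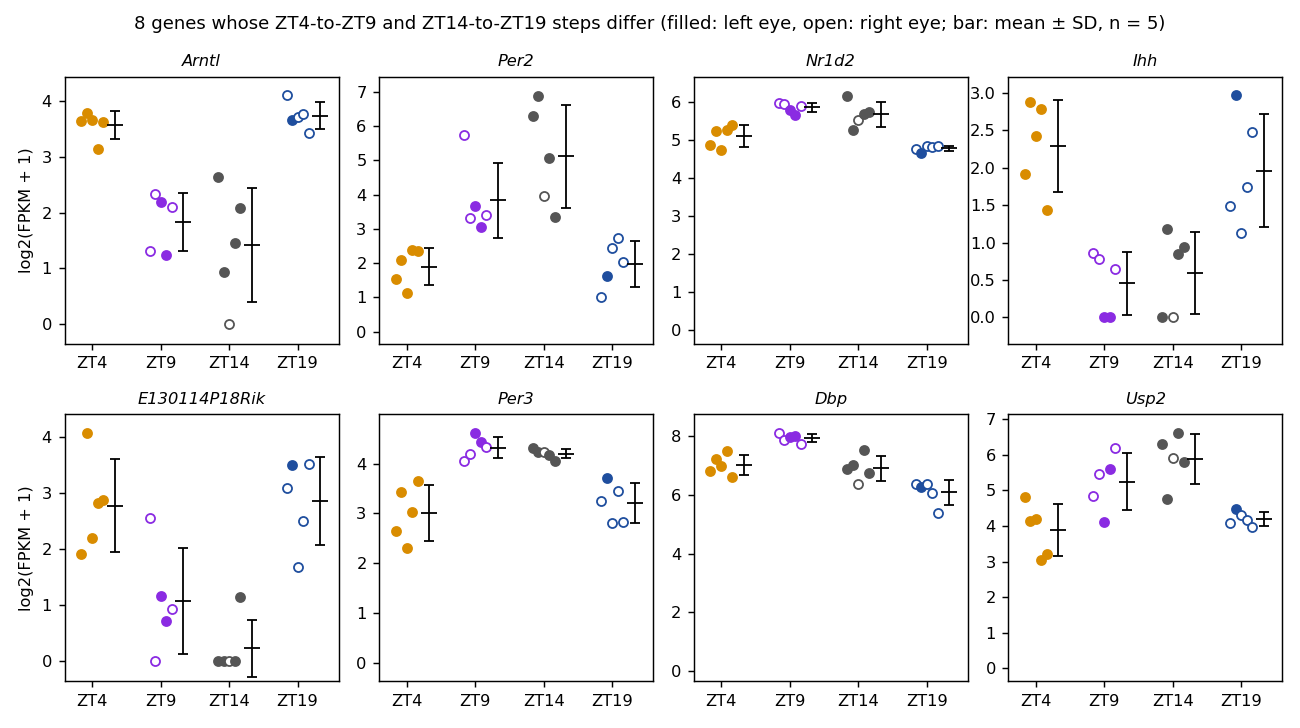
Log2(FPKM + 1) of the 8 genes whose day and night steps differ (vertical axes), in each sample of ZT4, ZT9, ZT14 and ZT19, with left eyes filled, right eyes open and bars for the mean ± SD of 5 samples. Arntl, Ihh and E130114P18Rik are low at ZT9 and ZT14 and high at ZT4 and ZT19, and Per2, Per3, Nr1d2 and Usp2 show the reverse.

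Outside the core, 5 of 12 genes on the clock output list were at an unadjusted p below 0.05, beside 3.48% of all genes, and none of the 12 passed the test or had groups without overlap. This list and those below were also drawn up with earlier results of these data known, so such counts are no independent support. Usp2, described above, had the smallest p (change 1.36 ± 0.42; limma, unadjusted p = 0.00307). Wee1, a kinase that holds back entry into mitosis, was 4.68 ± 2.23 FPKM at ZT4 and 9.65 ± 2.87 FPKM at ZT9 (0.96 ± 0.35). Tspan4, which encodes a membrane tetraspanin, was 62.2 ± 9.76 FPKM at ZT4 and 95.7 ± 25.6 FPKM at ZT9, with 4 of 5 ZT9 samples above all ZT4 samples. Leo1, a subunit of the PAF1 transcription complex, was lower at ZT9, its means being 14.6 ± 3.62 and 9.41 ± 3.76 FPKM (change −0.62, and −1.09 in left eyes only). Por, the fifth of these genes, which encodes cytochrome P450 reductase, was 71.7 ± 10.8 FPKM at ZT4 and 105 ± 38.4 FPKM at ZT9. Its change of 0.49 was 0.80 with eye as a term, 0.94 in left eyes only and 0.23 with the marker scores as terms.

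Glucocorticoid-responsive genes were another list with several small p-values. In mice, which are active at night, blood corticosterone is known to climb during the light phase. Of 16 measured genes the unadjusted p was below 0.05 for 6, with 4 higher and 2 lower at ZT9, beside 1.68% and 1.8% of all genes, and the median change was 0.38. Tsc22d3 (ENSMUSG00000031431, chromosome X, 140539528 to 140600659), which encodes the anti-inflammatory protein GILZ, was 40.5, 26.9, 37.5, 35.5 and 22.8 FPKM at ZT4 and 86.2, 49.5, 37.0, 65.8 and 121 FPKM at ZT9. Only ZT9 replicate 3 lay within the ZT4 range, and the change was 1.03 ± 0.25 (limma, unadjusted p = 0.000304), or 0.61 in left eyes only. Sgk1 (ENSMUSG00000019970, chromosome 10, 21882184 to 21999903), which encodes a kinase that acts on ion transport, was 149, 257, 175, 245 and 245 FPKM at ZT4 and 372, 299, 271, 268 and 354 FPKM at ZT9. Its samples did not overlap, although the gap between 257 and 268 FPKM was small, and the change was 0.56 ± 0.15 (limma, unadjusted p = 0.000933), or 0.36 in left eyes only (0.159). With the rod, stroma, surface epithelium, skeletal muscle and oligodendrocyte marker scores as terms, Sgk1 passed the threshold (change 0.70, limma adjusted p = 0.0224).

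Per1 is on this list as well as in the clock, and Cebpd, which encodes a C/EBP transcription factor, was 7.24, 3.42, 4.69, 5.99 and 3.20 FPKM at ZT4 and 8.44, 3.45, 7.34, 8.31 and 23.7 FPKM at ZT9. Zbtb16, named here after its values were seen, was the third of the 16 genes without overlap, after Per1 and Sgk1. Over all genes 0.346% were higher without overlap. Zbtb16 was 2.00 ± 0.82 FPKM at ZT4 and 3.64 ± 0.83 FPKM at ZT9 (limma, unadjusted p = 0.0665). Its change of 0.66 was 0.41 with eye as a term. It was picked for its values, so it is no further support. Other members differed less or lay on the other side: Fkbp5 was 13.2 ± 8.80 and 17.3 ± 5.68 FPKM, Mt1 was 931 ± 292 and 722 ± 219 FPKM, and Pdk4 and Angptl4 were lower at ZT9.

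Pdk4 and Angptl4 are also on the list of lipid oxidation, where 4 of 17 genes were lower at ZT9 at an unadjusted p below 0.05, beside 1.8% of all genes, and none was higher. The other 2 were Acot1 and Plin2. Acot1, an acyl-CoA thioesterase, was 31.2, 25.2, 36.1, 33.1 and 36.0 FPKM at ZT4 and 16.2, 2.47, 7.70, 12.7 and 13.6 FPKM at ZT9. Its samples did not overlap, with a change of −1.71 ± 0.62 (limma, unadjusted p = 0.00973). Reads of Acot1 can be shared with its close paralog Acot2, which was 8.0 ± 2.2 FPKM at ZT4 and 6.6 ± 2.6 FPKM at ZT9, and how they were divided is not stated. Angptl4, a secreted inhibitor of lipoprotein lipase, was 27.3, 17.5, 22.6, 21.6 and 9.26 FPKM at ZT4 and 18.4, 3.51, 11.3, 6.72 and 3.76 FPKM at ZT9 (change −1.24 ± 0.48; limma, unadjusted p = 0.0148). Pdk4, the kinase that turns glucose oxidation down, was 10.3 ± 4.15 FPKM at ZT4 and 4.99 ± 1.82 FPKM at ZT9, and Plin2, which coats lipid droplets, was 87.3 ± 21.9 and 51.7 ± 9.46 FPKM (change −0.73, and −0.46 with the marker scores as terms). Ppara, which encodes a fatty acid receptor, was 8.91 ± 11.7 and 4.06 ± 2.94 FPKM, and Cpt1a, the gene of fatty acid entry into mitochondria, had a change of −0.10 ± 0.18. Over the 17 genes 13 changes were negative and 4 positive, and the median was −0.13.

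**Figure D5:**
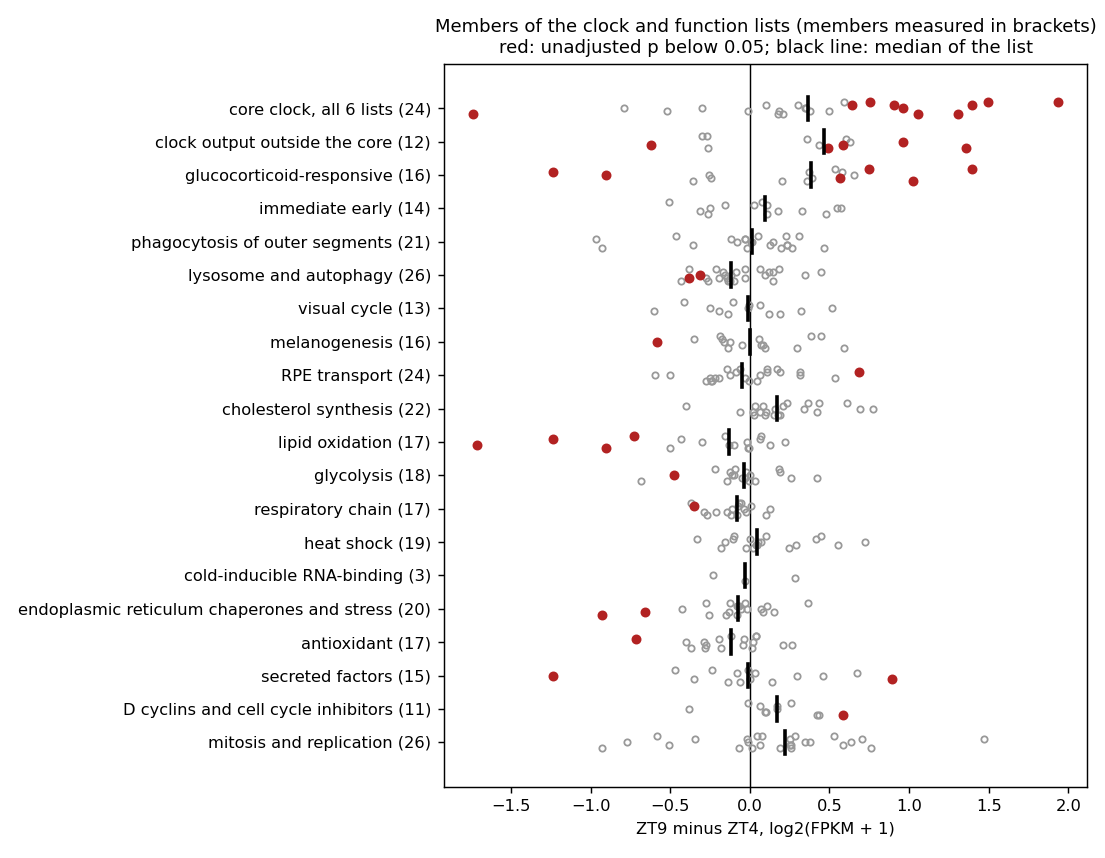
Change from ZT4 to ZT9 in log2(FPKM + 1) (horizontal axis) for every measured member of the clock and function lists, with members at an unadjusted p below 0.05 in red and the median of each list as a black line. The core clock, clock output and glucocorticoid lists hold most of the red points to the right, and lipid oxidation holds 4 to the left.

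The 10 higher genes with the smallest p were Per3, Gnl3l, Tsc22d3, Dbp, Nr1d2, Trim32, Per1, Sgk1, Ssh1 and Per2, and 7 of the 10 are on the clock or glucocorticoid lists. Samples did not overlap in 9 of them, the exception being Tsc22d3, beside 0.346% of all genes that were higher without overlap. These genes and the 10 lower ones below were picked for a small p in the same samples, so such counts are no further support. Gnl3l, which encodes a nucleolar GTPase, was 7.30, 15.1, 11.1, 17.8 and 13.9 FPKM at ZT4 and 37.2, 20.8, 33.8, 20.9 and 27.4 FPKM at ZT9 (change 1.06 ± 0.24; limma, unadjusted p = 0.000147, adjusted p = 0.616). Trim32, which encodes a ubiquitin ligase, was 12.8, 16.6, 9.05, 5.95 and 13.6 FPKM at ZT4 and 22.8, 30.0, 24.3, 30.2 and 34.8 FPKM at ZT9. Ssh1, which encodes a phosphatase of the actin regulator cofilin, was 3.14 ± 0.89 FPKM at ZT4 and 9.14 ± 5.87 FPKM at ZT9. In the night step the changes of Gnl3l and Trim32 were 0.03 and 0.13, and the difference of their steps did not pass the test (limma, adjusted p = 0.406 and 0.569).

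Of the 10 lower genes with the smallest p, Arntl alone is on a clock or glucocorticoid list. No overlap was seen in 6 of the 10, beside 0.281% of all genes that were lower without overlap. Besides Arntl, Ihh, AC098839.1 and AC153949.1, of which the last 2 are transcripts without a gene name, the 10 were Nubp2, Cyp4f13, Lrp8os3, Rbmx2, Ngdn and Cars2. Nubp2, which serves the assembly of iron-sulfur clusters, was 28.6 ± 3.36 FPKM at ZT4 and 16.5 ± 4.44 FPKM at ZT9. Ngdn, which encodes the nuclear protein neuroguidin, was 33.9 ± 4.66 and 18.6 ± 3.34 FPKM, and Cars2, the mitochondrial cysteinyl-tRNA synthetase, was 29.3 ± 9.38 and 12.4 ± 4.99 FPKM. Cyp4f13, a cytochrome P450 of fatty acid hydroxylation, was 24.0 ± 6.12 and 11.4 ± 4.68 FPKM, with 3 ZT9 samples far below and 2 at the lower edge of the ZT4 range. Rbmx2, an RNA-binding protein gene, was 14.8 ± 6.23 and 4.30 ± 5.33 FPKM. Lrp8os3 was listed at 0 in 4 of 5 ZT9 samples and was 1.09, 2.21, 0.0276, 1.35 and 1.5 FPKM at ZT4. It lies opposite Lrp8 by its name, and since the sources used here do not say that strand was used in counting, its reads cannot be told apart from those of its neighbour where they overlap.

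Genes of the daily work of the RPE are given next. None of 21 genes for the uptake of outer segments was at an unadjusted p below 0.05, with changes from −0.96 (Tulp1) to 0.47 (Itgav), a median of 0.01 and a median standard error of 0.30. The receptor gene Mertk was 19.5 ± 11.0 FPKM at ZT4 and 20.6 ± 5.88 FPKM at ZT9. None of 13 visual cycle genes was at that level either, with a median change of −0.01. Of 26 lysosome and autophagy genes, Npc2, a cholesterol carrier of the lysosome, was lower at ZT9 (134 ± 23.6 and 107 ± 15.7 FPKM), as was the autophagy receptor gene Sqstm1 (350 ± 87.5 and 269 ± 79.7 FPKM). The change of Sqstm1 was −0.38, but −0.27 with eye as a term and −0.043 in left eyes only (limma, unadjusted p = 0.867). Rubcn, named here after its values were seen, encodes Rubicon, which is needed for LC3-associated phagocytosis. It was 11.9, 15.6, 13.9, 12.3 and 15.9 FPKM at ZT4 and 19.1, 19.4, 19.8, 18 and 19.8 FPKM at ZT9, without overlap but at an unadjusted limma p of 0.0602, and its change of 0.44 was 0.26 with eye as a term. Of 16 melanogenesis genes Rab38, a GTPase of melanosome traffic, was lower at ZT9 without overlap, at 48.5 ± 4.26 and 32.0 ± 2.29 FPKM (change −0.58 ± 0.27; limma, unadjusted p = 0.0414), although the change was −0.34 with the marker scores as terms. Of 24 transport genes Slc6a6, the taurine transporter gene, was 81.7, 232, 136, 155 and 158 FPKM at ZT4 and 238, 245, 257, 180 and 255 FPKM at ZT9 (limma, unadjusted p = 0.0138). The share at an unadjusted p below 0.05 was 7.69% in the lysosome, 6.25% in the melanogenesis and 4.17% in the transport list, beside 3.48% of all genes. These shares rest on 1 or 2 genes each and are not read as results about the lists.

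In energy metabolism, 1 of 18 glycolysis genes (5.56%) and 1 of 17 respiratory chain genes (5.88%) was at an unadjusted p below 0.05, beside 3.48% of all genes. Ldhb, a subunit of lactate dehydrogenase, was 520 ± 73.3 FPKM at ZT4 and 374 ± 55.8 FPKM at ZT9. Of the 17 respiratory chain changes 14 were negative, but the median was −0.08, beside 0.01 for all genes. Of 20 chaperone and stress genes of the endoplasmic reticulum, the chaperone gene Sdf2l1 was 15.5 ± 4.11 and 7.92 ± 3.22 FPKM and Creld2 was 26.1 ± 3.61 and 17 ± 6.53 FPKM. Hmox1, the heme oxygenase gene of the antioxidant list, was 14.3, 15.9, 14.1, 17.8 and 15.0 FPKM at ZT4 and 7.52, 5.55, 10.6, 13.2 and 9.70 FPKM at ZT9, without overlap (change −0.72 ± 0.32; limma, unadjusted p = 0.0315). The change was −0.46 with eye as a term (limma, unadjusted p = 0.169) and −0.35 in left eyes only (0.291). Hmox1 breaks down heme, and blood markers stood lower at ZT9 too, as given below; their part in its values was not tested. Of 11 cyclin and cell cycle inhibitor genes Ccnd1, the gene of cyclin D1, was 71.9 ± 15.4 and 108 ± 22.4 FPKM (limma, unadjusted p = 0.00268). Of 15 secreted factors Angptl7 was 31.6 ± 13.2 and 61.8 ± 33.8 FPKM, with Angptl4 in the other direction. The share at an unadjusted p below 0.05 was 10.0% in the endoplasmic reticulum list, 5.88% in the antioxidant, 9.09% in the cyclin and 13.3% in the secreted factor list. All shares of this paragraph rest on 1 or 2 genes each and are not read as results about the lists.

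No member was at an unadjusted p below 0.05 among 14 immediate early, 22 cholesterol synthesis, 19 heat shock, 3 cold-inducible and 26 mitosis and replication genes. Their median changes were 0.09, 0.17, 0.04, −0.03 and 0.22. In cholesterol synthesis 20 of 22 changes were positive.

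The markers of other cell types were described in the same way, because in bulk samples a larger share of another tissue, or of RPE cells, cannot be told apart from more RNA per cell. Of 5 blood markers 3 were lower at ZT9 at an unadjusted p below 0.05, beside 1.8% of all genes: Hba-a1 (294 ± 142 and 147 ± 82.3 FPKM), Hbb-bs (688 ± 409 and 338 ± 187 FPKM) and Hbb-bt (90.3 ± 52.4 and 43.9 ± 25.2 FPKM). The change of Hbb-bs was −0.97, and −0.63 in left eyes only. Hbb-bs and Hbb-bt are nearly identical copies, and all 3 genes mark blood, so these are not separate observations. The blood markers summed to 488 to 2275 FPKM at ZT4 and 281 to 1235 FPKM at ZT9, with none at 0. Of 13 immune markers 12 had negative changes, and Tyrobp (67.1 ± 21.5 and 43.9 ± 18.8 FPKM) and C1qa (82.8 ± 18.3 and 55.4 ± 30.8 FPKM) were at an unadjusted p below 0.05, beside the same 1.8% of all genes. The immune markers summed to 808 to 1231 FPKM at ZT4 and 636 to 1246 FPKM at ZT9. Of 10 endothelium markers Emcn alone was at that level (limma, unadjusted p = 0.0343), and it was lower (66.6 ± 17.3 and 46.2 ± 18.9 FPKM). Of 12 inner retina markers Glul alone was (0.0166), beside 1.68% of all genes that were higher. Glul, the glutamine synthetase gene of Müller glia, was 563 ± 59.4 and 701 ± 57.8 FPKM. With eye as a term the unadjusted limma p was 0.0749 for Emcn and 0.056 for Glul. A single gene is not read as a result about its list. Glul made up much of the sum of the inner retina list, which was 846 to 957 FPKM at ZT4 and 1015 to 1200 FPKM at ZT9. The mean log2(FPKM + 1) of the 12 markers overlapped, at 3.76 to 4.70 at ZT4 and 3.34 to 5.12 at ZT9. Calb1, Gad1, Calb2 and Grm6 were at 0 in at least 1 sample. All 17 surface epithelium markers had positive changes (median 0.54, median SE 0.53). Changes were negative in 12 of 13 skeletal muscle markers (median −0.40, median SE 0.45) and in all 13 rod markers (median −0.55, median SE 1.43). None of these markers was at an unadjusted p below 0.05, and over all genes 8503 changes were positive and 8223 negative. The 10 RPE markers had a median change of 0.06. With the rod, stroma, surface epithelium, skeletal muscle and oligodendrocyte scores as terms, the unadjusted p was below 0.05 for 10 clock genes, with 8 higher and 2 lower. In that fit 978 of all 16741 genes were at that level, against 582 in the main fit.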

How the data were processed

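RNA of hand-dissected mouse RPE was sequenced as single reads of 75 bp with a stated mean of 20 M reads, per the labels' protocols. The deposited values are FPKM, 1 per gene and sample, which the authors computed; STAR, Cufflinks, DESeq2 and mm10 stand in the submitters' processing notes, without versions or roles. Decimal commas were read as points. The unit is given in the table's name, and annotation and strand use are not given in the sources used here. Counts were not used here. Depth was derived from the spacing of low FPKM values, with 199 bases taken off the exon length, and is not a deposited figure; it limits precision for low genes, where a listed 0 can also be a failed estimate.

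Positions come from GENCODE M21 on GRCm38, where 51711 of 51904 gene IDs were found, and promoters from RefSeq. log2(FPKM + 1) was fitted with limma 3.58.1 in R 4.3.3, with 1 mean for each of the 6 time points and a mean-variance trend. The tests of ZT9 against ZT4 and of the day step against the night step were two-sided, with Benjamini-Hochberg adjustment over all 16741 genes and a threshold of 0.05. Fold changes on this scale understate those of low genes. The fit was tested on simulated data. Replicate numbers follow the order of deposition and pair nothing. Each sample comes from a separate mouse.

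The 39 gene lists and the comparison itself were chosen with earlier results of these data known. Genes named are all clock members, the 10 higher and 10 lower with the smallest p, up to 4 of each other list by p, and those that pass the difference of the steps. Unnamed and predicted genes among the 10 and 10 are counted but not described, and some list members, 2 clock genes among them, enter the counts but are not reported here by name.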

Additional observations from a re-analysis of the deposited data

Results flagged for a closer look

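Among 144 sets of 5 samples of the named genes, 19 held a sample whose distance to the nearest other sample was more than 0.71 of the whole range. Chance gives about 1 in 20 where values are normally distributed. The values here are FPKM on a linear scale, and every flagged sample but that of Slc6a6 was the highest of its set. That rate may therefore not apply, and the count is not read as an excess. In ZT4, replicate 2 stood high for Cry1 (134.8 FPKM, next 13.5), Cry2 (14.93 FPKM, next 10.2) and E130114P18Rik (15.81 FPKM, next 6.31), replicate 5 for Clock (25.07 FPKM, next 15.6) and replicate 1 for Nfil3 (8.629 FPKM, next 5.30). In ZT9, replicate 1 stood high for Per2 (52.59 FPKM, next 11.6), Rbmx2 (13.61 FPKM, next 3.63), Ldhb (472.6 FPKM, next 367) and E130114P18Rik (4.902 FPKM, next 1.24). ZT9 replicate 2 stood high for Cry1 (80.29 FPKM, next 23.7) and Rorb (10.13 FPKM, next 4.00), and replicate 3 for Npas2 (6.191 FPKM, next 1.82) and Bhlhe40 (95.4 FPKM, next 68.9). ZT9 replicate 5 stood high for Cry2 (47.31 FPKM, next 20.3), Cebpd (23.7 FPKM, next 8.44), Nubp2 (24.32 FPKM, next 15.6) and Lrp8os3 (0.1248 FPKM, the others at 0), and replicate 4 stood low for Slc6a6 (180.2 FPKM, next 238). In ZT14, replicate 5 had E130114P18Rik at 1.208 FPKM and the others listed it at 0.

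The day step differed from the night step, by limma's test of the difference, by −4.06 in Arntl, 5.08 in Per2, 1.65 in Nr1d2, −3.20 in Ihh, −4.33 in E130114P18Rik, 2.30 in Per3, 1.74 in Dbp and 3.03 in Usp2, all in log2 units.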

How the results depend on the processing

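Genes called between ZT4 and ZT9 numbered 0 in 27 of 31 alternatives. There was 1 with array weights and 1 without ZT14 replicate 3, the sample with most abundant genes at 0, which is 1 fit and counted once, in both cases Arntl, so clock members past the threshold also numbered 1 there. There were 2 with 5 marker scores as terms (Sgk1 and Mylk4) and 2 in left eyes only (Gm28305 and Cyp2w1), a comparison chosen after seeing the data. Leaving out 1 sample at a time gave 0 to 1 called genes, 0 to 1 called clock members and 7 to 11 clock genes at an unadjusted p below 0.05. Genes at an unadjusted p below 0.05 numbered 988 with no filter, 978 with the marker scores, 895 in left eyes only and 483 to 778 with 1 sample left out. Genes whose samples do not overlap numbered 1768 in left eyes only and 175 to 267 with 1 sample left out, since fewer samples overlap less. Genes that differ between the steps numbered 3 with the marker scores (Arntl, Nr1d2 and Sgk1) and 5 to 9 with 1 sample left out, the lowest without ZT4 replicate 3, ZT9 replicate 4 or ZT19 replicate 5; the cause was not tested. The differences of the 8 genes kept their sign throughout, as given above for the marker scores and left eyes. Of 30 alternatives, Arntl and Nr1d2 passed in 29, Per2 and E130114P18Rik in 28, Per3 in 23, Dbp in 19 and Usp2 in 7, and Ihh passed in 27 of 29.

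Of 64 named genes, 59 kept the sign of their change from ZT4 to ZT9 in every alternative. The others were Rorb (−0.118 with eye as a term, −0.265 in left eyes only, −0.0964 to 0.386 with 1 sample left out), Csnk1d (−0.00441 with eye as a term), Fbxl21 (−0.0472 with the marker scores, −0.194 to 0.426), Clock (−0.122 to 0.163) and Rora (−0.0342 to 0.308). No paired analysis was possible because the labels carry no replicate numbers shared by the time points. The animal numbers were divided here into 3 ranges, which the labels do not name as batches. With these as a term 0 genes were called between ZT4 and ZT9 and 9 differed between the steps. Eye and time of day cannot be fully told apart, since ZT4 has no right eye, and the depth of single reads is known only as an estimate.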
